A study of Mus musculus with 32 samples.

Results

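Mitochondrial transcripts were followed in a genome-wide map of RNA–DNA interactions. In RADICL-seq, RNA in crosslinked nuclei is ligated through a bridge adapter to DNA close to it, so that each molecule read joins a tag from the RNA to one from the DNA. The 10 transcripts chosen by name are mt-Rnr1, mt-Rnr2, mt-Nd1, mt-Nd2, mt-Nd4, mt-Nd5, mt-Co1, mt-Co2, mt-Cytb and mt-Atp6, out of 17784 transcripts listed in the 15 libraries. An interaction was counted for them when the gene of its RNA tag was one of the 10, and it was then divided by whether its DNA tag lay on the mitochondrial chromosome (chrM) or on a nuclear chromosome. Of the 10, 8 were listed in at least 1 library, and mt-Co2 and mt-Atp6 were listed in none.

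The libraries came from mouse embryonic stem cells of the line R08 (mESC) and from Oli-neu cells, an established mouse line of oligodendrocyte progenitors (mOPC). All cells were fixed with formaldehyde, so no group is free of crosslinking at the start. The groups were mESC fixed with 1% formaldehyde (mESC 1FA, 3 libraries), mESC fixed with 2% formaldehyde (mESC 2FA, 3 libraries), mESC given actinomycin D, which blocks transcription, at 5 µg/ml for 4 h and then fixed with 1% formaldehyde (mESC ActD, 2 libraries), mOPC fixed with 1% formaldehyde (mOPC 1FA, 3 libraries), and 1 group of 2 libraries from each line, fixed with 1% formaldehyde, in which proteins were digested with proteinase K and crosslinks reversed before RNA was ligated (mESC NPM and mOPC NPM, for non-protein-mediated). In the NPM libraries both ligations were also made in solution after purification, not in bead-bound nuclei. Protein removal and these ligation conditions cannot be told apart. Each cell type is 1 line, and replicates are batches of cells of different passage number. Of the mESC markers, 9 were tested and 9 had fewer interactions in mOPC 1FA than in mESC 1FA, where 41.9% of all genes had fewer, and of the mOPC markers, 10 were tested and 9 had more, against 31.8% of all genes.

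Mitochondrial DNA is a small circle present in many copies outside the nucleus. Both of its strands are transcribed into long precursors, from which transfer RNAs are cut, and the cuts release 2 ribosomal RNAs, mt-Rnr1 (12S) and mt-Rnr2 (16S), and the messenger RNAs. The ribosomal RNAs lie next to each other close to where transcription of the heavy strand starts, and they are the most abundant stable products. The messenger RNAs encode subunits of the respiratory chain and of ATP synthase: mt-Nd1, mt-Nd2, mt-Nd4 and mt-Nd5 of complex I, mt-Cytb of complex III, mt-Co1 and mt-Co2 of complex IV, and mt-Atp6 of ATP synthase. Pieces of mitochondrial DNA have also been copied into nuclear chromosomes over time, and tags from such a stretch cannot be placed on one copy.

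In the mm10 build chrM has 16299 bases. On it mt-Rnr1 spans chrM:70-1024 and mt-Rnr2 spans chrM:1094-2675, both on the plus strand and each a single exon without a reading frame. All RNA tags of the 8 listed transcripts were on the plus strand, with those of both ribosomal RNAs in the annotated exon and those of the messenger RNAs in coding sequence. Some positions within the ribosomal RNAs were tagged far more often than the rest. The following 25-base stretches are shown because the frequencies described below turn on them. They are reference sequence of GRCm38.p6 (the mm10 build), plus strand, with the base at the centre of the most frequent tags in capitals.
mt-Rnr1, internal position, chrM:748-772: taggtcaaggtgTagccaatgaaat
mt-Rnr1, 3′ end, chrM:991-1015: aggtaagcatacTggaaagtgtgct
mt-Rnr2, 3′ end, chrM:2651-2675: tacaccctctaaCctagagaaggtt
The first is centred on base 691 of mt-Rnr1, 264 bases before its end. The second is centred 21 bases before the end of mt-Rnr1 and the third 12 bases before the end of mt-Rnr2.

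Not every stretch of chrM could give a tag. Of the 25-base windows of each transcript, the share that maps to 1 place among chrM and its nuclear copies (at least 50 bases) was 96.0% for mt-Rnr1, 64.9% for mt-Rnr2, 99.0% for mt-Nd1, 58.4% for mt-Nd5, 56.1% for mt-Nd2, 55.5% for mt-Cytb, 33.3% for mt-Nd4 and 8.67% for mt-Co1. For mt-Co2 and mt-Atp6 it was 0%. Windows were not mapped to the rest of the genome, so these shares are upper limits. A nuclear copy at chr1:24611535-24616188 matches chrM:6390-11042 at 99.9% identity and covers mt-Co2 and mt-Atp6 entirely. In no group did a DNA tag of these transcripts lie between bases 6501 and 11000 of chrM. The missing counts of mt-Co2 and mt-Atp6 therefore say nothing of how much of these RNAs touched DNA, and those of mt-Co1 and mt-Nd4 come from a part of each transcript.

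The deposited files list an interaction only when its pair of a gene and a 25-kb DNA bin passed the test of the authors, made on the pooled replicates of a group. The libraries listed from 251802 to 2832717 unique interactions, the fewest after actinomycin D. These totals are not sequencing depth, and a transcript listed at 0 may still have been captured. Levels are given as scaled CPM, that is, unique interactions per 1000000 listed in the library, with the library total corrected by a scaling factor taken from all genes. More RNA of a transcript and more contact per RNA molecule cannot be told apart in these counts.

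With mitochondrial DNA, both ribosomal RNAs were listed in all 15 libraries, and their group means were lowest in mESC 1FA and 2FA. In mESC 1FA, mt-Rnr1 had 782, 93 and 203 interactions with chrM DNA, which were 314, 39.1 and 76.5 scaled CPM. In mESC 2FA it had 36.3, 102 and 145 scaled CPM, in mESC ActD 474 and 414, and in mESC NPM 3051 and 1045, while mOPC 1FA had 954, 569 and 322 and mOPC NPM had 886 and 2014. The first library of mESC 1FA held most of that group's interactions, and the libraries of each NPM group lay far apart. mt-Rnr2 followed mt-Rnr1 closely on chrM. It had 354, 38.3 and 87.8 scaled CPM in mESC 1FA, 33.1, 88.9 and 116 in mESC 2FA, 512 and 365 in mESC ActD, and 2420 and 835 in mESC NPM. The mOPC 1FA libraries had 846, 491 and 233 and the mOPC NPM libraries 1009 and 1606. For mt-Rnr2 the first mESC 1FA library thus lay above the third of mOPC 1FA. The ratio of mt-Rnr1 to mt-Rnr2 interactions on chrM lay between 0.871 and 1.38 in every library.

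**Figure D1:**
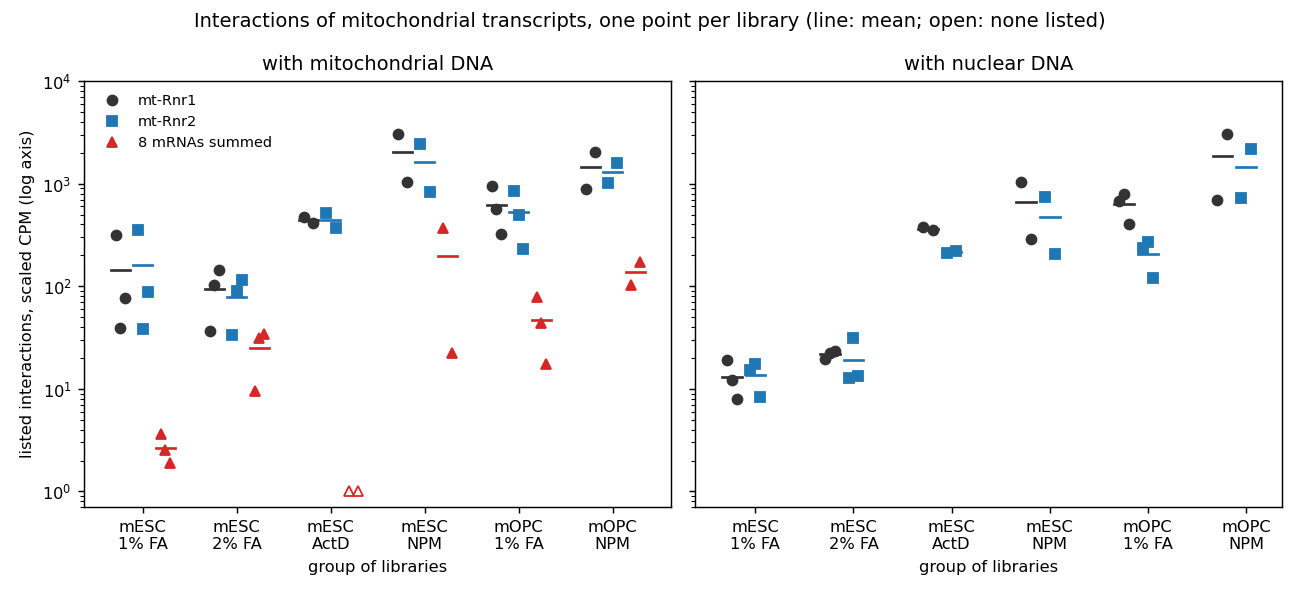
Listed interactions of mt-Rnr1, mt-Rnr2 and the 8 messenger RNAs summed, in scaled CPM (TMM-scaled interactions of a library, brought to the same total) on a log axis, with mitochondrial DNA (left) and nuclear DNA (right). Each point is 1 library, the lines are group means and open points, drawn at 1, stand for libraries where none was listed. Messenger RNAs were listed with mitochondrial DNA only. On nuclear DNA the mESC 1FA and 2FA libraries sit between 7.92 and 31.0, below all libraries of the other groups.

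With nuclear DNA only the 2 ribosomal RNAs were listed. In mESC 1FA, mt-Rnr1 had 48, 29 and 21 interactions with nuclear DNA, which were 19.3, 12.2 and 7.92 scaled CPM. The other groups had 19.5, 22.5 and 23.3 in mESC 2FA, 380 and 350 in mESC ActD, 1041 and 290 in mESC NPM, and, for mOPC, 684, 798 and 404 with proteins and 689 and 3042 without. Neither the 1FA nor the 2FA libraries of mESC overlapped any library of the other 4 groups. For mt-Rnr2 with nuclear DNA, mESC 1FA had 15.3, 17.3 and 8.29 scaled CPM, mESC 2FA 12.7, 31.0 and 13.3, mESC ActD 211 and 218, mESC NPM 739 and 208, mOPC 1FA 234, 269 and 121, and mOPC NPM 727 and 2185. In mOPC 1FA, mt-Rnr1 had 2.92 to 3.34 times the nuclear interactions of mt-Rnr2, against 0.707 to 1.80 times in the 12 other libraries. In that group 231 nuclear bins were listed for mt-Rnr1 and 89 for mt-Rnr2, with medians of 10 and 9 pooled interactions. The ratio cannot be told apart from the number of pairs that passed the test of the authors.

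The messenger RNAs were a small part of the listed contacts. The ribosomal RNAs made up 88.8% to 100% of the interactions of the 8 transcripts in each library. mESC 1FA listed 5, 2 and 4 interactions of mt-Nd1, mESC 2FA 8, 16 and 22, mESC ActD 0 and 0, and mESC NPM 51 and 7. mOPC 1FA listed 20, 16 and 3 and mOPC NPM 29 and 54. Per kilobase of transcript, mt-Nd1 had 1.43 ± 0.553 unscaled CPM with chrM DNA in mESC 1FA (SD, n = 3) and mt-Rnr1 had 141 ± 145. In mOPC 1FA these levels per kilobase were 6.32 ± 4.18 and 436 ± 230 (SD, n = 3).
mt-Nd2, with which mt-Nd1 shares complex I, was listed in the same groups as mt-Nd1. mt-Nd4, mt-Nd5 and mt-Cytb were listed at 0 in mESC 1FA and mESC ActD, while in mESC 2FA mt-Nd5 had 4, 15 and 22 interactions and mt-Cytb 4, 9 and 12. mt-Co1 had 32 interactions over all libraries, at most 9 in any, and was not tested.

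For the tests, each gene was divided by DNA compartment (its own chromosome, or the others) and all 12917 features with enough interactions were fitted in limma, with Benjamini-Hochberg adjustment over all of them. Of the mitochondrial transcripts, 9 features could be tested: mt-Rnr1 and mt-Rnr2 with chrM and with nuclear DNA, and mt-Nd1, mt-Nd2, mt-Nd4, mt-Nd5 and mt-Cytb with chrM DNA. All 5 messenger RNAs passed the minimum through groups other than mESC 1FA and mESC ActD, where no library reached 10 interactions of any of them. Their differences from those groups are therefore given as listed interactions, with no call, and members called are counted over the 4 features of the ribosomal RNAs. The shares of all features set beside these counts cover both compartments together. Without the division 12514 genes were tested. The share called among contacts with other chromosomes alone was not taken, so the nuclear features have no reference of their own kind. The comparisons with mESC 1FA share its 3 libraries and are not independent of each other.

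The first comparison asked whether stronger fixation changes what is captured. mt-Nd5 and mt-Cytb, listed at 0 in mESC 1FA, were listed in all 3 libraries of mESC 2FA. For the ribosomal RNAs no difference passed. mt-Rnr1 differed by -0.27 ± 0.71 (log2 difference ± SE) with chrM DNA and 0.80 ± 0.52 with nuclear DNA, and mt-Rnr2 by -0.60 ± 0.72 and 0.41 ± 0.52. Of these 4 features, 0 were called higher (limma adjusted p from 0.62 to 0.99, unadjusted p from 0.15 to 0.71; 0 also with voom weights), against 2.52% of all features. Without mESC 1FA replicate 1 both chrM differences turned positive, at 0.57 for mt-Rnr1 and 0.27 for mt-Rnr2.

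The second comparison asked what remained after transcription was blocked. Relative to the other listed RNAs, nuclear contacts of both mitochondrial ribosomal RNAs were higher in mESC ActD than in mESC 1FA, by 4.85 ± 0.59 for mt-Rnr1 and 4.01 ± 0.59 for mt-Rnr2 (log2 difference ± SE; limma adjusted p = 6.3e-06 and 3.9e-05), in 2 of 2 libraries each. With chrM DNA the log2 differences were 2.17 ± 0.79 and 2.02 ± 0.81 (limma adjusted p = 0.028 and 0.042). No messenger RNA was listed in either mESC ActD library. In all, 4 of 4 features were higher, against 16.1% of all features, and 0 were lower, against 46.9%. The median log2 difference of all features was -0.44.
The nuclear calls held in all 23 alternative fits, 15 of which left out 1 library. Those with chrM DNA did not: leaving out mESC 1FA replicate 2 or 3 or either mESC ActD library moved the adjusted p to between 0.076 and 0.12 for mt-Rnr1 and between 0.095 and 0.17 for mt-Rnr2. The call of mt-Rnr1 was also lost when copied lines were counted (adjusted p = 0.051) and with groups thinned to equal totals (adjusted p = 0.30), and that of mt-Rnr2 in 6 further settings, among them the replicate block (adjusted p = 0.064) and the thinning (adjusted p = 0.37). The mESC ActD libraries list far fewer interactions than mESC 1FA. With every group thinned to the mESC ActD total, the nuclear differences were 4.64 ± 0.81 for mt-Rnr1 and 3.89 ± 0.66 for mt-Rnr2 (limma adjusted p = 0.00065 and 0.00053). Those with chrM DNA were 1.40 ± 0.90 and 1.29 ± 0.93. mESC ActD itself was not reduced and kept 266 and 154 nuclear interactions of mt-Rnr1 and mt-Rnr2, while mESC 1FA kept 5 of each. Pairs were not called anew after thinning, so it cannot tell the nuclear differences apart from the unequal totals at which pairs were called.

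The third comparison asked which contacts are seen when proteins are removed before ligation. In mESC, both ribosomal RNAs were higher in NPM than in 1FA libraries on both kinds of DNA. The log2 difference of mt-Rnr1 was 4.18 ± 0.79 with chrM DNA and 5.44 ± 0.59 with nuclear DNA (limma adjusted p = 0.00060 and 4.8e-06). That of mt-Rnr2 was 3.74 ± 0.81 and 4.88 ± 0.59 (limma adjusted p = 0.0016 and 1.2e-05). These 4 higher features of 4 stand against 22.1% of all features, and no call was lost in any of the 23 alternative fits. Messenger RNAs had at most 5 interactions each in a mESC 1FA library, while in the first and second mESC NPM library mt-Nd5 had 60 and 6, mt-Cytb 43 and 2 and mt-Nd4 39 and 2.
In mOPC, 1 of the 4 features was higher in NPM than in 1FA libraries, against 31.2% of all features. This was mt-Rnr2 with nuclear DNA, by 2.68 ± 0.59 (limma adjusted p = 0.0015). mt-Rnr1 with nuclear DNA had a log2 difference of 1.26 ± 0.59 (limma adjusted p = 0.086). With voom weights it passed, at 1.23 ± 0.45 (limma adjusted p = 0.026). With chrM DNA mt-Rnr1 and mt-Rnr2 had 1.26 ± 0.79 and 1.47 ± 0.81 (limma adjusted p = 0.20 and 0.14). With voom weights mt-Rnr2 passed there, at 1.45 ± 0.53 (limma adjusted p = 0.026), and mt-Rnr1 did not. The 5 messenger RNAs had log2 differences of 1.59 to 2.13, none of which passed. With voom weights mt-Cytb, mt-Nd1 and mt-Nd2 passed (limma adjusted p from 0.026 to 0.041), and mt-Nd4 and mt-Nd5 did not.
The nuclear values also moved in 2 settings added after the data were seen. With pairs of at least 20 pooled interactions only, the nuclear difference in mOPC was 3.36 ± 0.66 for mt-Rnr1 and 4.22 ± 0.65 for mt-Rnr2 (limma adjusted p = 0.00089 and 0.00013). With groups thinned to equal totals of listed interactions it was 5.00 ± 0.81 and 5.20 ± 0.66 (limma adjusted p = 0.00024 and 3.1e-05). Thinning kept only pairs with at least 5 interactions left, and pairs were not called anew. It left mt-Rnr1 and mt-Rnr2 12 and 8 nuclear interactions in mOPC 1FA, against 888 and 780 in mOPC NPM. In mESC 1FA it left 5 of each. The thinned differences therefore cannot be told apart from this loss of pairs. In mESC the same 2 settings gave 5.66 and 5.31 for mt-Rnr1 and 4.90 and 4.79 for mt-Rnr2.
All values depend on the scaling. With libraries scaled by their totals alone, the median log2 difference of all features between mOPC 1FA and NPM moved from 0.11 to 0.99, and 8 features, messenger RNAs included, were called higher. The split of all calls then moved from 4025 higher and 2952 lower to 7505 and 779 in mOPC, and from 2858 and 3949 to 5176 and 2218 in mESC.

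The change with protein removal was also tested for a difference between the lines. For mt-Rnr1 with nuclear DNA the change in mOPC minus that in mESC was -4.18 ± 0.83 on the log2 scale (limma adjusted p = 0.0013), but this call was lost with pairs of at least 20 (-2.31 ± 0.93, limma adjusted p = 0.052) and with groups thinned to equal totals (-0.30 ± 1.14, limma adjusted p = 0.87). The term also passed for mt-Nd5 (limma adjusted p = 0.0082). Since mt-Nd5 was listed at 0 in mESC 1FA, its value is set by the prior count and is only a description. Of the 4 features of the ribosomal RNAs 0 were higher, against 24.8% of all features, and 1 was lower, against 10.5%. For mt-Rnr2 with nuclear DNA the difference of -2.21 ± 0.83 did not pass (limma adjusted p = 0.053; 0.039 with the replicate block), and it was 0.40 ± 0.93 with thinning. With chrM DNA neither mt-Rnr1 nor mt-Rnr2 passed in the main fit (limma adjusted p = 0.058 and 0.14) or in most other settings. With voom weights both passed, at -2.90 ± 0.83 and -2.23 ± 0.83 (limma adjusted p = 0.011 and 0.046). Without mESC 1FA replicate 1 both passed as well (limma adjusted p = 0.0075 and 0.021).

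The fourth comparison was between cell types. In standard 1FA libraries, nuclear contacts were higher in mOPC than in mESC, by 5.58 ± 0.52 for mt-Rnr1 and 3.89 ± 0.52 for mt-Rnr2 (limma adjusted p = 2.7e-07 and 1.1e-05), and so in 3 of 3 libraries each. The first 45 Mb of chromosome 5, described below, held 79.7% to 81.6% of the nuclear contacts in the mOPC 1FA libraries. In mOPC NPM it held 77.8% and 78.6%. No mESC library listed any there, and no limma fit left that stretch out. Both log2 differences were smaller in the 2 added settings. With pairs of at least 20 pooled interactions the nuclear difference was 2.88 ± 0.59 for mt-Rnr1 and 1.06 ± 0.58 for mt-Rnr2 (limma adjusted p = 0.00069 and 0.12). With groups thinned to equal totals neither passed, at 1.26 ± 0.72 and 1.00 ± 0.59 (limma adjusted p = 0.16 and 0.17), and the thinned mOPC 1FA libraries held 12 nuclear interactions of mt-Rnr1 in all and those of mESC 1FA held 5. With chrM DNA the log2 differences were 2.51 ± 0.71 and 2.11 ± 0.72 (limma adjusted p = 0.0056 and 0.017). The 4 higher features of 4 stand against 31.8% of all features, of which 4111 were higher and 5433 lower (3173 and 6617 with scaling by totals). Scaling by totals ended the call of mt-Rnr2 with chrM DNA (limma adjusted p = 0.053), as did leaving out mESC 1FA replicate 2 or 3 or mOPC 1FA replicate 1, and the thinning (limma adjusted p = 0.054).
The lines were compared in NPM libraries as well. With nuclear DNA, mt-Rnr2 was higher in mOPC by 1.68 ± 0.64 (limma adjusted p = 0.036) and mt-Rnr1 had a log2 difference of 1.40 ± 0.64 (limma adjusted p = 0.076). With voom weights mt-Rnr1 passed, at 1.42 ± 0.56 (limma adjusted p = 0.038). With chrM DNA the log2 differences were -0.42 ± 0.87 and -0.16 ± 0.88 (limma adjusted p = 0.71 and 0.91). The 1 higher feature of 4 stands against 29.7% of all features. It was lost without mESC NPM replicate 2 or mOPC NPM replicate 2 (adjusted p = 0.36 and 0.31) and in 5 further settings, among them scaling by totals (adjusted p = 0.056), pairs of at least 20 (adjusted p = 0.70) and thinning (adjusted p = 0.14).

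Of the other 27 genes on chrM, 11 were listed, with 628 interactions in all and 0 with nuclear DNA. Of these, 10 were transfer RNAs. mt-Tv, which lies between mt-Rnr1 and mt-Rnr2, had 161 interactions, mt-Ta 98, mt-Tl1, on the other side of mt-Rnr2, 89, and mt-Tm 79, while mt-Nd6, the light-strand complex I subunit, had 84. mt-Ta had 31, 21 and 20 in mOPC 1FA, 1 to 8 in the libraries of mESC 1FA and 2FA and 0 in those of the 3 other groups. mt-Tl1 had 38, 15 and 10 in mOPC 1FA, 0 to 7 in the mESC 1FA, 2FA and ActD libraries and 0 in all NPM libraries. In scaled CPM, with the prior count included, mt-Ta had 14.2 to 20.6 in mOPC 1FA, above all other libraries, while mt-Tl1 had 25.2, 11.7 and 7.24 in mOPC 1FA and 6.90 and 19.1 in mESC ActD, so that these groups overlapped. mt-Tv was listed in 14 of the 15 libraries, and mt-Nd6 had 31 interactions in 1 mOPC NPM library and 4 in the other. Of the 11 genes, 5 reached the minimum for a test, and since mt-Ta, mt-Tl1 and mt-Nd6 did so only through mOPC libraries, no calls are given for them.
Nuclear genes that serve mitochondria changed in both directions. Their counts stand against 20.6% of all 12514 tested genes higher and 30.4% lower in mESC NPM than in mESC 1FA, and 31.8% higher and 41.9% lower in mOPC 1FA than in mESC 1FA. Of 31 tested genes for the expression and upkeep of mitochondrial DNA, 14 were higher and 3 lower in mESC NPM than in mESC 1FA, with a median log2 difference of 0.64 against 0.00 for all genes. Among them Lrpprc, which stabilises mitochondrial messenger RNAs, was lower by 0.75 on the log2 scale (limma adjusted p = 0.00040), and it was also lower in mOPC than mESC, by 1.27 in 1FA libraries (limma adjusted p = 2.5e-07). Of 54 tested nuclear-encoded subunits of oxidative phosphorylation, 20 were higher and 10 lower in mESC NPM, and 8 were higher and 21 lower in mOPC 1FA than in mESC 1FA. Of 56 tested mitochondrial ribosomal proteins, 9 were higher and 29 lower in mOPC 1FA than in mESC 1FA. Of 20 abundant cytosolic messenger RNAs, 5 were higher and 8 lower in mESC NPM, and 1 was higher and 16 lower in mOPC 1FA, with a median log2 difference of -1.81 against -0.22 for all genes.
Over the 15 libraries, and among 3424 genes with at least 100 interactions on average, Sptan1 was closest to the summed mitochondrial transcripts in its pattern of log2 levels (Pearson r = 0.914, as a description). Sf3b1 (0.898), Paxbp1 (0.897), Prpf39 (0.888) and Ddx5 (0.858) followed.

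The share of all listed interactions that came from mitochondrial transcripts was 0.0312% ± 0.0302 in mESC 1FA (SD, n = 3), 0.0236% ± 0.0114 in mESC 2FA (n = 3), 0.157% ± 0.0207 in mESC ActD (n = 2), 0.136% ± 0.0569 in mOPC 1FA (n = 3), 0.744% ± 0.575 in mESC NPM (n = 2) and 0.779% ± 0.470 in mOPC NPM (n = 2). All 4 NPM libraries exceeded all 6 1FA libraries. Over both lines the NPM share was higher by 0.678 percentage points, with p = 0.01 in an exact two-sided permutation test within lines, the smallest it allows. After adjustment over the 24 comparisons of shares it was 0.12, and none of the 24 passed. When every gene and bin pair counted once, whatever its interactions, the NPM shares were 0.173% for mESC and 1.38% for mOPC, the 1FA shares 0.00339% and 0.146%, and those of mESC 2FA and ActD 0.00715% and 0.0608%, so that the NPM groups, close in the share of interactions, lay far apart in that of pairs. Between 2 groups the smallest possible p was 0.1 for 3 against 3 or 2 libraries and higher for 2 against 2.

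The position of the DNA tag on chrM separated the NPM libraries from the rest. The paper reports that short distances between RNA and DNA tags dominate its NPM data as a whole, far more than its standard libraries. Shares for other RNAs were not taken here, so the separation cannot be called particular to mitochondrial transcripts. Around the circle, RNA and DNA tag centres lay within 1 kb of each other in 28.3%, 46.3% and 33.1% of the chrM contacts in the libraries of mESC 1FA, on average 35.9% ± 9.32 (SD, n = 3). The group means were 52.7% ± 13.6 in mESC 2FA (n = 3), 54.3% ± 2.46 in mESC ActD (n = 2), 53.7% ± 9.62 in mOPC 1FA (n = 3), 98.3% ± 0.798 in mESC NPM (n = 2) and 98.7% ± 1.02 in mOPC NPM (n = 2). The NPM libraries did not overlap those of any other group. Over both lines the NPM share was higher by 53.7 percentage points (exact permutation p = 0.01, the smallest possible, adjusted 0.12).
Contacts beyond 2 kb made up 39.5% to 55.0% in the mESC 1FA libraries and 26.3% to 41.1% in mOPC 1FA, against 0.123% to 0.626% in mESC NPM and 0.180% to 0.898% in mOPC NPM. For positions along chrM libraries were pooled, and in mESC 1FA the first held 782 of the 1078 interactions of mt-Rnr1. In that group 40.6% of its DNA tags lay in the first 3000 bases of chrM, which hold both ribosomal RNA genes. A further 31.3% lay at bases 11001 to 15000. In mESC NPM these shares were 99.6% and 0.104%. In mOPC they were 61.9% and 19.6% in 1FA and 99.3% and 0.384% in NPM.
Where the DNA tag lay relative to the RNA also differed. In NPM libraries it was on the 5′ side of the RNA tag, toward the start of the transcript, in 98.2% to 99.2% of chrM contacts. In 1FA libraries this was so in 63.3% to 66.1% for mESC and 68.8% to 77.9% for mOPC. The tags lay within 5 bases of each other in 1.85% to 27.2% of chrM contacts of a library, 17.9% to 20.2% in mESC NPM and 12.6% to 22.2% in mOPC NPM, so tags that nearly coincide were not particular to one protocol.

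**Figure D2:**
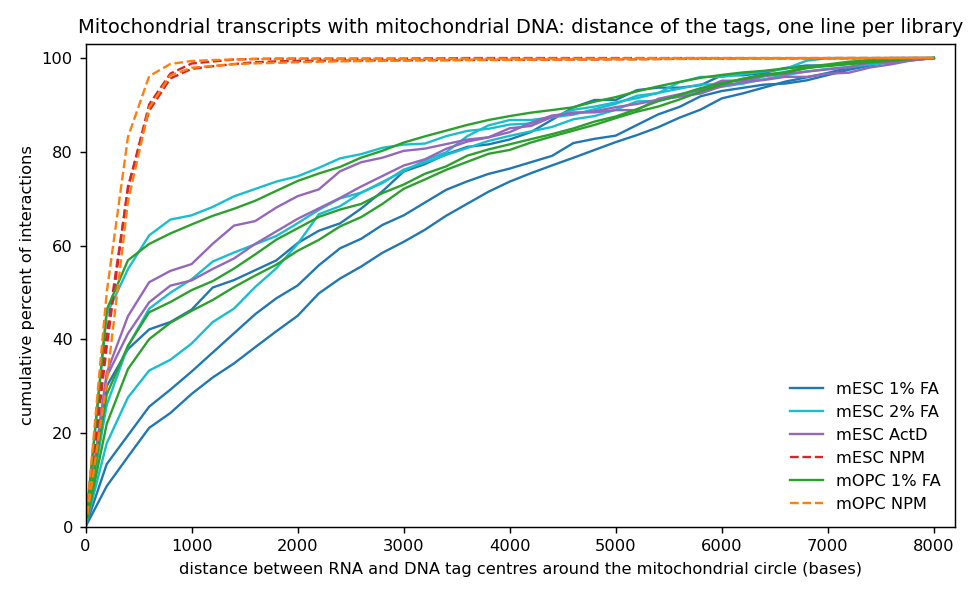
Cumulative percent of the chrM interactions of mitochondrial transcripts against the distance between RNA and DNA tag centres around the circle, in bases, with 1 line per library, NPM libraries dashed, and 1FA and 2FA written as 1% and 2% FA. The 4 NPM lines reach nearly 100% by 1 kb, where the mESC 1FA libraries stand at 28.3% to 46.3%.

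The RNA tags themselves fell at other places in the NPM libraries than in the rest. Tags within 5 bases of the internal position of mt-Rnr1 shown above made up 24.7% to 31.7% of its chrM contacts in the mESC 1FA libraries, 26.4% to 34.5% in mESC ActD, 15.0% to 20.8% in mESC 2FA and 16.3% to 26.0% in mOPC 1FA. In mESC NPM the share was 3.15% to 4.70% and in mOPC NPM 2.64% to 3.79%. The NPM libraries lay below all others. Among the nuclear contacts of mt-Rnr1 the NPM libraries also lay lowest, with 22.5% to 29.6% in mOPC 1FA, 30.1% in both mESC ActD libraries, 14.3% to 25% in mESC 1FA, 8.89% to 20.9% in mESC 2FA and 2.49% to 6.85% in the 4 NPM libraries. In mESC 1FA and 2FA these shares rest on 21 to 58 nuclear interactions of a library.
The last 30 bases of mt-Rnr1 held 0.985% to 4.86% of its chrM tags in mESC 1FA and 19.6% to 36.2% in mESC NPM. In mOPC NPM, however, the share was 1.22% in 1 library and 22.1% in the other, against 8.91% to 12.3% in mOPC 1FA. For mt-Rnr2 the last 30 bases held 12.1% to 19.95% in mESC 1FA, 24.2% to 26.0% in mESC NPM, 6.66% to 11.6% in mOPC 1FA and 13.9% to 19.3% in mOPC NPM. These positions were chosen because they were frequent, so the shares are a description without a test.

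**Figure D3:**
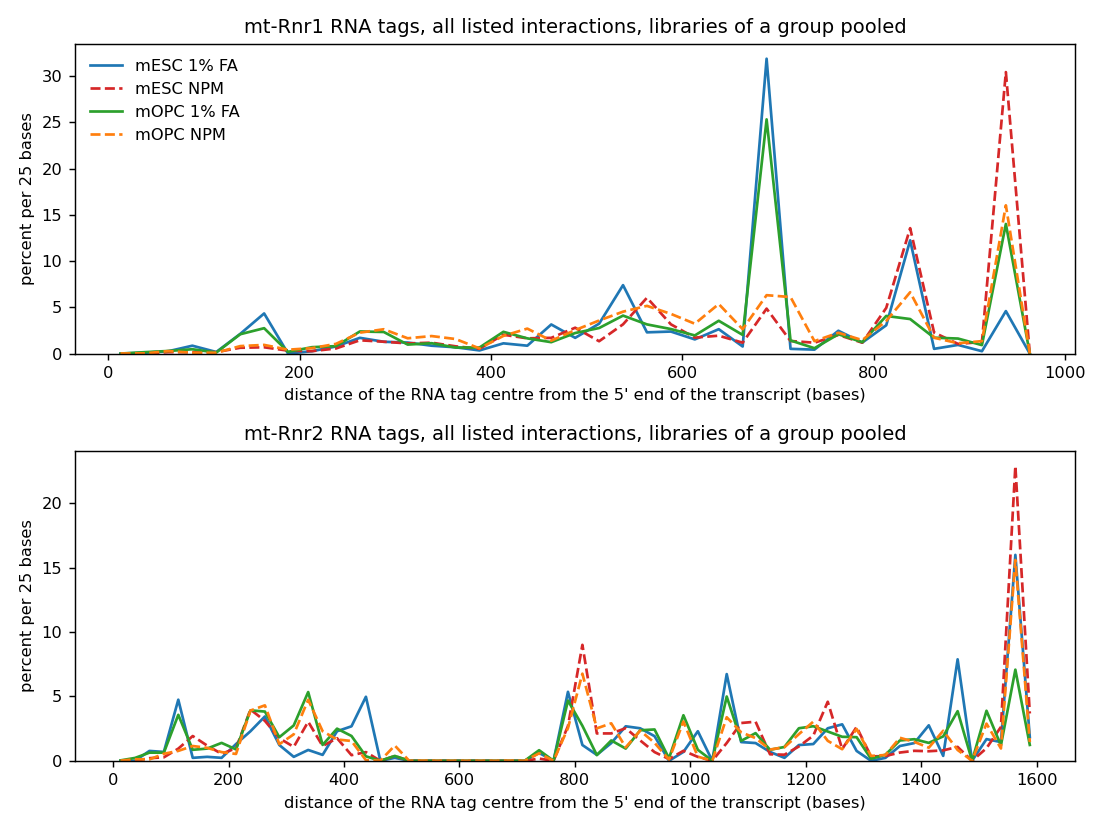
Percent of the RNA tags of mt-Rnr1 (top) and mt-Rnr2 (bottom) per 25 bases against the distance of the tag centre from the 5′ end of the transcript, libraries of a group pooled, all DNA. The 1FA groups (solid) peak near base 691 of mt-Rnr1, where the NPM groups (dashed) do not, and the group peaks at the 3′ end of mt-Rnr1 hide the spread between the mOPC NPM libraries, from 1.22% to 22.1% with chrM DNA and from 0.696% to 20.9% with nuclear DNA.

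Listed contacts with nuclear DNA lay in few bins in mESC and in more in mOPC. Contacts in pairs that did not pass the test of the authors are not seen. The share of the mitochondrial transcripts' interactions on nuclear DNA was 13.6% ± 11.7 in mESC 1FA (SD, n = 3), 19.8% ± 8.99 in mESC 2FA (n = 3), 39.8% ± 3.33 in mESC ActD (n = 2), 22.1% ± 1.84 in mESC NPM (n = 2), 43.3% ± 9.09 in mOPC 1FA (n = 3) and 49.7% ± 11.6 in mOPC NPM (n = 2). mOPC exceeded mESC by 28.7 percentage points over both protocols (exact permutation p = 0.0167, the smallest possible, adjusted 0.133). All of chrM lies in 1 bin, and with each pair counted once the nuclear share was 58.5% in mESC 1FA, 54.9% in mESC 2FA, 92.0% in mESC ActD, 84.9% in mESC NPM, 97.5% in mOPC 1FA and 98.9% in mOPC NPM. These interactions fell in 4 bins of 25 kb in mESC 1FA, 6 in mESC 2FA, 19 in mESC ActD, 29 in mESC NPM, 267 in mOPC 1FA and 437 in mOPC NPM. Over all groups there were 548 bins on 19 chromosomes, and only 1 of them holds a nuclear copy of mitochondrial DNA, with 57 of the 16081 interactions.

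In mESC 1FA and 2FA 1 bin held most of them. It is chr17:39825001-39850000, which carries ribosomal RNA gene sequence and in which 2668 different transcripts were listed, against 251 in the bin with the next highest number. It took 74.9% of the nuclear interactions in mESC 1FA, 67.7% in mESC 2FA, 45.2% in mESC ActD and 38.6% in mESC NPM, but 4.03% in mOPC 1FA and 2.69% in mOPC NPM. Other RNAs met the same bin less often in mESC 1FA, with 4.75% to 7.20% of their contacts between chromosomes, and more often in mESC NPM, with 73.5% and 90.1%. The 3 other bins of mESC 1FA were chr11:3150001-3175000 and chr11:3175001-3200000, over the gene Sfi1, which encodes a centrosome protein, and chr11:109000001-109025000. All 4 were listed in every group. Without the ribosomal RNA gene bin the nuclear share fell to 3.56% ± 2.57 in mESC 1FA (n = 3) and 13.99% ± 3.95 in mESC NPM (n = 2), and was 42.3% ± 8.99 in mOPC 1FA (n = 3).

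In mOPC most listed nuclear contacts lay on the first 45 Mb of chromosome 5. This stretch took 79.7% to 81.6% of them in the mOPC 1FA libraries and 77.8% and 78.6% in mOPC NPM, spread over 216 and 339 of its 1800 bins. Other RNAs had 9.46% to 9.77% of their contacts between chromosomes there in mOPC 1FA and 51.2% to 53.1% in mOPC NPM. In mESC no contact of a mitochondrial transcript was listed there, and other RNAs had 0.831% to 0.994% in 1FA, 2FA and ActD libraries and 0% in NPM.
With this stretch left out, a choice made after the data were seen, the nuclear share was 13.6% ± 11.7 in mESC 1FA and 13.4% ± 4.47 in mOPC 1FA. In NPM it was 22.1% ± 1.84 for mESC and 18.2% ± 6.45 for mOPC. The mean of mOPC thus no longer exceeded that of mESC. When only pairs of at least 20 pooled interactions were kept, the same held in 1FA, with 11.2% ± 10.9 in mESC 1FA and 5.12% ± 1.94 in mOPC 1FA. In NPM it did not hold, with 18.1% ± 1.26 in mESC NPM and 21.4% ± 7.54 in mOPC NPM. In mOPC 1FA the median listed nuclear pair held 10 pooled interactions for mt-Rnr1 and 9 for mt-Rnr2.

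**Figure D4:**
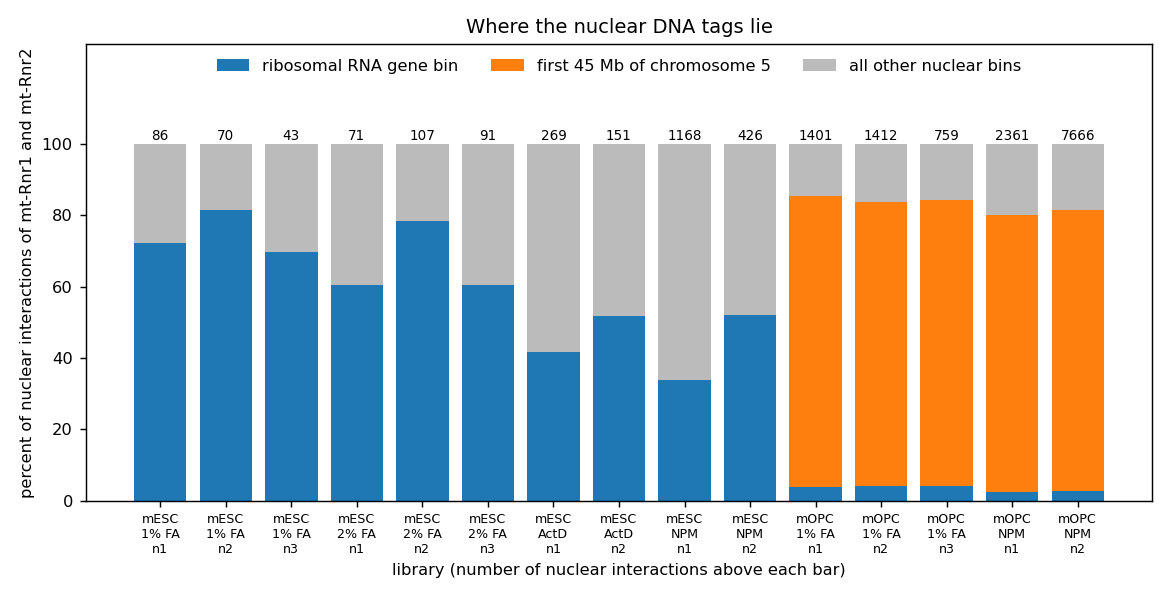
Percent of the nuclear interactions of mt-Rnr1 and mt-Rnr2 in each library that lay in the ribosomal RNA gene bin (blue), on the first 45 Mb of chromosome 5 (orange) or in any other bin (grey), with the number of nuclear interactions above each bar. The ribosomal RNA gene bin took 33.8% to 81.4% in the mESC libraries, and the chromosome 5 stretch 77.8% to 81.6% in the mOPC libraries.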

How the data were processed

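RNA and DNA tags were extracted, filtered against nuclear ribosomal RNA, freed of PCR duplicates and aligned to mm10 with BWA (0.7.15-r1140) by the authors, who assigned RNA tags to genes, binned DNA in 25-kb bins and listed the pairs whose adjusted p was below 0.05. The files, as deposited by the authors, have 32 columns with 1 line per interaction and carry p-values of pairs. These were used only to check the threshold. Identical lines were counted once per library. Copies were 2.11% to 32.5% of the mitochondrial lines. Symbols were matched for 99.8% of the Ensembl identifiers.

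Interactions per gene and library (at least 10 in 2 libraries and 15 in total) were scaled by TMM factors and tested as log2 values (prior count 0.5) with limma 3.58.1 in R 4.3.3, with 6 group means over 15 libraries. On simulated data with 200 genes changed 4-fold (log2 change 2) between mESC 1FA and mOPC 1FA, 99.5% were recovered by gene and 100% by compartment. The simulation gave all genes the same dispersion, changed only genes with many interactions and left out the calling of pairs. It does not give the recovery for the mitochondrial transcripts, whose replicates spread widely, or for groups of 2 libraries. Added after the data were seen were fits on pairs of at least 20 pooled interactions and on groups thinned at random to equal totals, with pairs of at least 5 kept. Pairs were not called anew after thinning. Shares were compared by exact permutation. Replicates share 1 list of called pairs, so they were not called independently, and p-values cover only the spread between these libraries. Nuclear copies of chrM (at least 50 bases) were taken with blastn 2.17.0. Uniqueness of 25-base windows was taken with bwa 0.7.19 against chrM and these copies with their flanks, not against the whole genome.

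Same-numbered libraries of mESC 1FA and mESC 2FA deviated together weakly, with r from 0.124 to 0.242, against -0.186 to 0.0216 for different numbers. Same-numbered libraries of other groups gave -0.117 to 0.138, a range that holds the lowest of these values. The main fits and tests took no account of replicate numbers, and the replicate block was run as an alternative. The transcripts and gene lists were chosen with earlier results of these data known. Named were the 10 transcripts, up to 5 other chrM genes with most interactions, and, per nuclear list, up to 3 called genes with the largest change and a mean of at least 100 interactions.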

Additional observations from a re-analysis of the deposited data

Results flagged for a closer look

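The change between 1FA and NPM libraries differed between the lines for mt-Rnr1 by the interaction term of the limma fit. With nuclear DNA, the change in mOPC minus that in mESC was -4.18 on the log2 scale (adjusted p = 0.0013). It was -2.31 (adjusted p = 0.052) with pairs of at least 20 pooled interactions and -0.30 (adjusted p = 0.87) with groups thinned to equal totals. Both settings were chosen after the data were seen, and the thinned 1FA groups held few nuclear interactions of mt-Rnr1. Over all DNA the change in mOPC minus that in mESC was -3.10 for mt-Rnr1 (adjusted p = 0.034). That call was lost when any of several single libraries was left out and with the thinning (-2.13, adjusted p = 0.21). For mt-Nd5 with chrM DNA it was -4.78 (adjusted p = 0.0082), a description only: mt-Nd5 was listed at 0 in mESC 1FA and passed the minimum through other groups, so the value is set by the prior count.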

How the results depend on the processing

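Of 39 named log2 differences, 33 kept their direction in all 15 fits that left out 1 library and in the 8 other settings where they could be tested, and 15 of 24 differences of shares kept theirs in all settings run for them. In the fits, pairs of at least 20 and groups thinned to equal totals were added after the data were seen. The numbers of mitochondrial features called, which include the messenger RNAs, are given where they moved by over 1.5 times. The messenger RNAs passed the minimum through groups other than mESC 1FA and mESC ActD. Their part in these counts is therefore a description only. By DNA compartment 9 were tested, of which 2 were called for mESC 2FA, 5 for mESC ActD, 8 for mESC NPM, 1 for mOPC 1FA against NPM, 8 for 1FA between lines, 1 for NPM between lines and 2 for the difference between lines. These calls were of higher features, except 1 for mESC ActD and the 2 for the difference between lines. Of all features, 2.52%, 16.1%, 22.1%, 31.2%, 31.8%, 29.7% and 24.8% were called higher in this order. Called lower were 46.9% for mESC ActD and 10.5% for the difference between lines. Voom weights gave 6 for the difference between lines in the change with protein removal, 6 for mOPC 1FA against NPM and 2 for NPM between lines. Scaling by totals gave 8 for mOPC 1FA against NPM and 0 for NPM between lines. Counting copied lines gave 3 for mESC ActD and 0 for NPM between lines, no low-count filter gave 2 for mOPC 1FA against NPM, and for mESC 2FA a prior count of 2 gave 0 and the replicate block gave 1. Among smaller moves, voom weights gave 7 for mESC ActD, where mt-Nd1 was lost and mt-Nd4, mt-Nd5 and mt-Cytb, listed at 0 in both groups, were called higher at 2.85, and mESC NPM gave 9, with mt-Nd2 added, under voom weights, totals, a prior count of 2 and pairs of at least 20. Pairs of at least 20 gave 4 for mESC 2FA, 0 for NPM between lines and 2 for mOPC 1FA against NPM. Thinning, after which 7 features could be tested, gave 0 for mESC 2FA, 2 for mESC ActD, 4 for 1FA between lines, 0 for NPM between lines, 2 for mOPC 1FA against NPM and 1 for the difference between lines.
By gene 7 were tested, of which 2, 3, 6, 1, 6, 0 and 2 were called in the same order. These too were called higher, except 1 for mESC ActD and the 2 for the difference between lines. Of all 12514 genes, 303, 2038, 2573, 3821, 3984, 3708 and 3028 were called higher in that order. Called lower were 5843 for mESC ActD and 1187 for the difference between lines. Voom weights gave 4 for the difference between lines, 5 for mESC ActD and 5 for mOPC 1FA against NPM, totals gave 6 and the replicate block 0 for the last, no filter gave 1 for NPM between lines, and for mESC 2FA a prior count of 2 gave 0 and the replicate block 1. Pairs of at least 20 gave 4 for mESC 2FA and 0 for mOPC 1FA against NPM, and thinning gave 0 for mESC 2FA, 0 for mESC ActD, 0 for mOPC 1FA against NPM and 1 for the difference between lines.
Leaving out 1 library, the counts by compartment ran from 1 to 2 for mESC 2FA, 2 to 6 for mESC ActD, 1 to 5 for mOPC 1FA against NPM, 0 to 5 for NPM between lines and 2 to 8 for the difference between lines, and by gene from 1 to 2, 1 to 4, 0 to 5, 0 to 3 and 1 to 6. The count between lines by compartment was 8 without mESC NPM replicate 2, 5 without mOPC 1FA replicate 3 and 4 without mESC 1FA replicate 1. For NPM between lines it was 5 without mESC NPM replicate 1. For mOPC 1FA against NPM it was 5 without either mESC NPM library.
Leaving out 1 library moved the log2 difference of mESC 2FA from -0.93 to 0.57 for mt-Rnr1 and from -1.33 to 0.27 for mt-Rnr2 with chrM DNA and from -0.0034 to 0.63 for mt-Rnr2 with nuclear DNA, and that of NPM between lines with chrM DNA from -1.18 to 0.37 for mt-Rnr1 and from -0.91 to 0.62 for mt-Rnr2. The last 2 were 0.097 and 0.36 with pairs of at least 20, and 0.20 for mt-Rnr2 with thinning, which also turned the difference between lines for mt-Rnr2 with nuclear DNA, to 0.40.
For the mitochondrial share of interactions it moved the difference (percentage points) from -0.0179 to 0.00976 for mESC 2FA, -0.371 to 0.442 for NPM between lines and -0.133 to 0.274 between lines over both protocols. For the nuclear share of mOPC 1FA against NPM it moved it from -1.81 to 14.7, and for the share within 1 kb of NPM between lines from -0.335 to 1.10.
With each pair counted once, mESC 2FA differed by 0.00376 in the mitochondrial and -3.60 in the nuclear share. The mitochondrial share of NPM between lines was -0.0844 with copied lines, -0.340 with pairs of at least 20 and -0.0947 with groups thinned to equal totals, and between lines over both protocols it was -0.135 and -0.00683 under the last 2. The nuclear share between lines in 1FA was -6.11 with pairs of at least 20, -4.22 thinned and -0.187 without the first 45 Mb of chromosome 5. Over both protocols it was -1.45 with pairs of at least 20 and -2.03 without that stretch, and in NPM -3.87 without it. Within 2 kb in place of 1 kb, NPM between lines differed by -0.165. Other than by fewer samples or features tested, the cause was not tested.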

Other observations

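Nuclear-encoded RNA was also listed with chrM DNA. In CPM (per 1000000 listed interactions, unscaled) there were 3.53 to 11.9 in the mESC 1FA libraries, 23.2 to 66.3 in mESC 2FA, 67.5 and 71.6 in mESC ActD, 30.5 to 72.8 in mOPC 1FA, 93.6 and 669.6 in mESC NPM and 269 and 779 in mOPC NPM. The number of such genes was 3, 12, 3, 11, 19 and 70. Malat1, a nuclear long noncoding RNA, had 33 of these interactions in mESC 1FA, 194 in mOPC 1FA and 290 in mOPC NPM.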
